A study of Drosophila melanogaster with 22 samples.

Results

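Myc (FBgn0262656), Max (FBgn0017578) and Mnt (FBgn0023215) are 3 of the 17101 genes counted in a Psi-seq study of Drosophila melanogaster heads. They were taken by name, as the partner proteins of one transcription factor network, and each had reads in all 22 libraries. The libraries were made from poly(A) RNA of virgin females aged 1 day, with 100 heads for each replicate. Psi-seq maps pseudouridine with CMC, a carbodiimide that stays bound to this modified base and stops reverse transcription beside it, and every RNA sample gave a CMC-treated library and a mock-treated library. The w1118 flies were the isogenic control strain, and the RluA-2 flies were homozygous for RluA-2 del-FRT, which removes the locus of a pseudouridine synthase from that background. Exp 1 held w1118 alone, as 3 pairs of libraries, while each genotype gave 4 pairs in Exp 2.

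Myc is a transcription factor that drives growth, chiefly by raising the expression of genes for ribosome production and protein synthesis. It binds DNA as a dimer with Max, a small protein with no strong regulatory activity of its own. Mnt also dimerises with Max and represses transcription, so that Myc and Mnt compete for the same partner and for many of the same sites. In flies the balance of these proteins is best known from body and organ size, and from cell growth in larval tissues.

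In the RefSeq annotation of Release 6, Myc lies at chrX:3373159-3391697 and Mnt at chrX:3671801-3701672 on the plus strand, 280 kb apart. Max lies at chr3L:19262232-19264184 on the minus strand. The span of Max overlaps Bet1, which lies on the other strand, and the locus of CG42374 and Mettl5, where most reverse transcription ends came from the strand of Max. The span of Myc lies wholly within that of a long noncoding RNA gene and also overlaps CG12535. Their strands relative to Myc are not given here. The counting rule of the files drops read pairs that fall on 2 genes, so counts of Max and of Myc are of the reads that were assigned to each alone.

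The libraries held 12035142 to 30701799 counts each, and the counts behind each value were 151 to 530 for Myc, 215 to 831 for Max and 847 to 2286 for Mnt. Replicates of a group differed by far more than counting error, with a lowest chi-square of 6.34 per degree of freedom. Within a group, then, no library was another one sequenced again. A second library from the same RNA would not be told apart this way, and libraries of different groups were not compared. The deleted gene was read from CMC terminations within its span, which were 0.604 to 1.91 per 1000000 gene counts in the RluA-2 libraries. In the w1118 libraries of both experiments they were 5.12 to 9.18. These ranges did not overlap. The CMC and mock library of an RNA sample shared their deviations from the group mean across genes in 9 of the 11 pairs, with correlations from 0.20 to 0.61. In Exp 1 replicates 2 and 3 the correlations were -0.25 and -0.16, whereas CMC replicate 2 went with mock replicate 3 at 0.34 and CMC replicate 3 with mock replicate 2 at 0.47. The column headers number the Exp 1 libraries 1, 3 and 4 where the titles number them 1, 2 and 3, but both pair each CMC library with the same mock library. Results that rest on these pairs are given with and without them.

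Myc had its lowest counts in w1118 of Exp 2 and its highest in w1118 of Exp 1, with RluA-2 between them. Values below are counts per 1000000 counts of the library (CPM) after TMM scaling over the 22 libraries. They include no gene length, so they are compared between libraries and never between genes. The group means of Myc were 12.7 ± 1.15 CPM (SD, n = 4) in Exp 2 w1118 CMC, 12.8 ± 1.26 (n = 4) in Exp 2 w1118 mock, 17.1 ± 2.35 (n = 4) in RluA-2 CMC, 18.6 ± 4.40 (n = 4) in RluA-2 mock, 23.7 ± 3.07 (n = 3) in Exp 1 w1118 CMC and 24.8 ± 4.66 (n = 3) in Exp 1 w1118 mock. Of the neighbours in this order, only Exp 2 w1118 mock and RluA-2 CMC had ranges that did not overlap. The group means of Max were ordered first by treatment, at 20.5 to 27.0 CPM in mock libraries and 27.3 to 43.0 CPM in CMC libraries. Single libraries overlapped, however. Those of Exp 1 w1118 mock overlapped the CMC libraries of w1118 and of RluA-2 in Exp 2, and those of RluA-2 mock overlapped Exp 2 w1118 CMC. For Mnt all neighbouring groups overlapped, from 71.9 ± 2.14 CPM (n = 4) in RluA-2 mock to 111 ± 20.1 CPM (n = 3) in Exp 1 w1118 CMC.

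**Figure D1:**
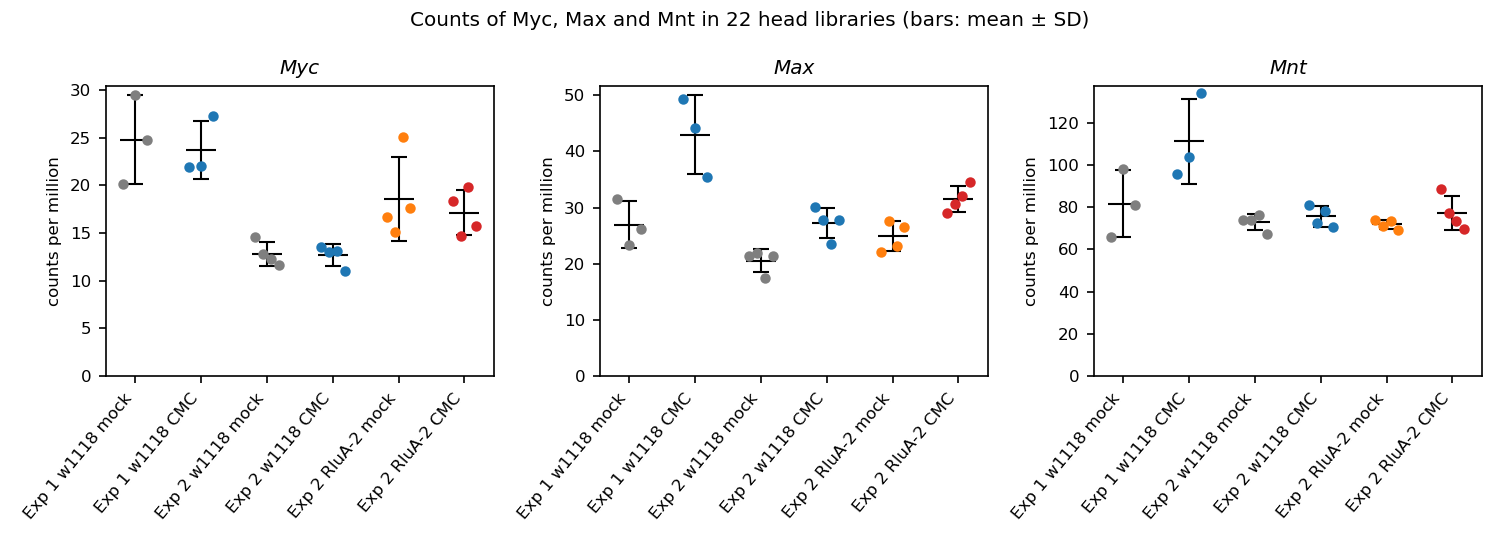
CPM of Myc, Max and Mnt on linear axes from 0, 1 point for each of the 22 libraries, with the mean and SD of each of the 6 groups. Exp 1 w1118 lies at 20.2 to 29.5 CPM for Myc and Exp 2 w1118 at 10.97 to 14.6 CPM, while the RluA-2 libraries lie at 14.7 to 25.0 CPM.

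To ask whether loss of RluA-2 was accompanied by a change in the network, RluA-2 and w1118 were compared in the mock libraries of Exp 2. Myc RNA was higher in RluA-2, Max RNA was higher by a smaller margin that missed the threshold, and Mnt RNA differed by less than the spread between libraries. The mock libraries of w1118 held 14.6, 12.8, 12.3 and 11.7 CPM of Myc. Those of RluA-2 held 16.6, 15.1, 25.0 and 17.6 CPM. Every RluA-2 library was above every w1118 library, and RluA-2 replicate 3 stood above the rest. The share of all genes with groups as separate as this is not given here. Myc differed by a log2 fold change of 0.53 (SE 0.14), or 1.45-fold, with an adjusted p of 0.0160 by edgeR's quasi-likelihood test over 10161 genes. In this comparison 23.7% of all genes tested passed, 11.1% as higher in RluA-2 and 12.6% as lower. Without RluA-2 replicate 3 the log2 fold change was 0.35 (adjusted p = 0.0208), and without w1118 replicate 4 it was 0.48 and just missed the threshold (adjusted p = 0.0512). In whole heads, a change in the number of cells that express a gene and a change in its RNA per cell cannot be told apart.

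Max, the shared partner, had 21.3, 21.9, 17.5 and 21.4 CPM in the w1118 mock libraries. The RluA-2 mock libraries had 22.1, 27.7, 23.2 and 26.6 CPM. The groups did not overlap, although the lowest RluA-2 library and the highest w1118 library almost met. How many of all genes had separate groups is not given here for any comparison. The log2 fold change of Max was 0.26 (SE 0.09, 95% confidence interval 0.07 to 0.45), with an adjusted p of 0.0535. It passed the threshold with DESeq2 (adjusted p = 0.0443), and also when the CMC and mock counts of each RNA sample were summed (log2 fold change 0.24, adjusted p = 0.0224), an alternative chosen after seeing the data. With a library left out it passed in 1 of 8 fits by edgeR's test. Without w1118 replicate 3 the log2 fold change was 0.20 (adjusted p = 0.112).

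Mnt, the repressor, had 73.9, 73.9, 76.3 and 67.3 CPM in the w1118 mock libraries. In the RluA-2 mock libraries it had 73.9, 71.2, 73.2 and 69.2 CPM. These ranges lay almost on top of each other. The log2 fold change was -0.02 (SE 0.05), its 95% confidence interval ran from -0.13 to 0.08, and the adjusted p was 0.814.

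The CMC libraries came from the same RNA samples and so are not an independent test of the genotype. In them Myc had 13.5, 13.0, 13.1 and 10.97 CPM in w1118. It had 18.3, 14.7, 19.8 and 15.7 CPM in RluA-2. The groups again did not overlap, and the log2 fold change was 0.42 (SE 0.10, adjusted p = 0.0109), where 21.1% of 10050 genes passed and 8.80% were higher in RluA-2. Max had a log2 fold change of 0.20 (SE 0.08, adjusted p = 0.103) and its groups overlapped. Mnt had 0.01 (SE 0.08, adjusted p = 0.932).

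The ratio of 2 counts within a library does not depend on how the library is scaled, and it was used to follow Myc against its partner and its competitor. The log2 ratio of Myc to Mnt counts in mock libraries was -2.34, -2.53, -2.63 and -2.52 in w1118. In RluA-2 it was -2.15, -2.23, -1.55 and -1.97. All 4 RluA-2 values were above all 4 w1118 values, with a mean difference of 0.53, and the exact two-sided permutation test gave p = 0.0286, the smallest that 4 samples against 4 can give (adjusted p = 0.0857 over the 3 ratios). In the CMC libraries the groups were separate as well, with a difference of 0.40 and the same p. The ratio of Myc to Max differed by 0.24 with overlapping groups (exact permutation p = 0.371). The ratio of Mnt to Max differed by -0.29, also with overlap (exact permutation p = 0.0857), so no ratio passed after adjustment. These are ratios of counts and say nothing of which protein was in excess.

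**Figure D2:**
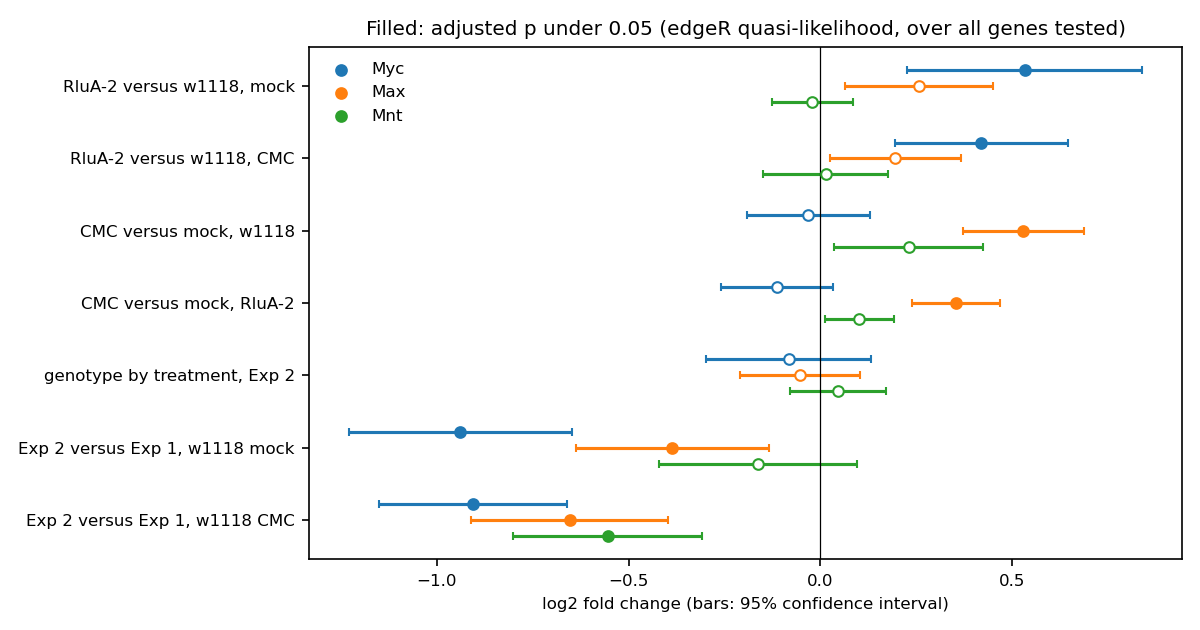
Log2 fold changes of Myc, Max and Mnt in 7 comparisons, with 95% confidence intervals and filled points where the adjusted p was under 0.05 by edgeR's quasi-likelihood test. Myc is filled in both genotype comparisons and both comparisons of experiments, Max in both comparisons of treatment and both of experiments, and Mnt in the CMC comparison of experiments alone.

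The CMC treatment was read next, to see how far gene counts of the network depended on the library type. Max was higher in the CMC library of every RNA sample, Myc showed no common direction, and Mnt was higher in 10 of the 11. In w1118 the log2 ratio of CMC to mock CPM of Max was 0.65, 0.92 and 0.44 in Exp 1. In Exp 2 it was 0.49, 0.34, 0.42 and 0.37. In RluA-2 it was 0.39, 0.15, 0.47 and 0.37. All 11 values were above 0. With the RNA sample as a block, Max had a log2 fold change of 0.53 in w1118 (SE 0.07, adjusted p = 0.000627), where 34.6% of 10570 genes passed and 16.2% were higher in CMC. In RluA-2 it had 0.35 (SE 0.06, adjusted p = 3.84e-05), where 32.0% of 10321 genes passed and 15.2% were higher. Without the Exp 1 pairs 2 and 3 the value for w1118 was 0.47 (adjusted p = 0.000676), and with their mock libraries crossed it was 0.53 (adjusted p = 5.72e-05). Within Exp 1 and within Exp 2 it was 0.69 (adjusted p = 0.0115) and 0.41 (adjusted p = 2.09e-05).

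Mnt had a log2 fold change of 0.23 between CMC and mock in w1118 (SE 0.09, adjusted p = 0.0632) and 0.10 in RluA-2 (SE 0.04, adjusted p = 0.0814). Its value in w1118 was larger in Exp 1, a difference that was not itself tested. It was 0.46 within Exp 1 (adjusted p = 0.0395) and 0.05 within Exp 2 (adjusted p = 0.277). It was 0.16 without the Exp 1 pairs 2 and 3 (adjusted p = 0.135) and 0.23 with those pairs crossed (adjusted p = 0.0175). Myc had -0.03 in w1118 (SE 0.07, adjusted p = 0.775) and -0.11 in RluA-2 (SE 0.07, adjusted p = 0.240). The pairs of Myc were 0.12, -0.42 and 0.14 in Exp 1 w1118 and lay between -0.11 and 0.09 in Exp 2 w1118. In RluA-2 they were 0.14, -0.05, -0.34 and -0.17. The lowest value came from Exp 1 replicate 2 and the next lowest from RluA-2 replicate 3, whose CMC and mock library went together.

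**Figure D3:**
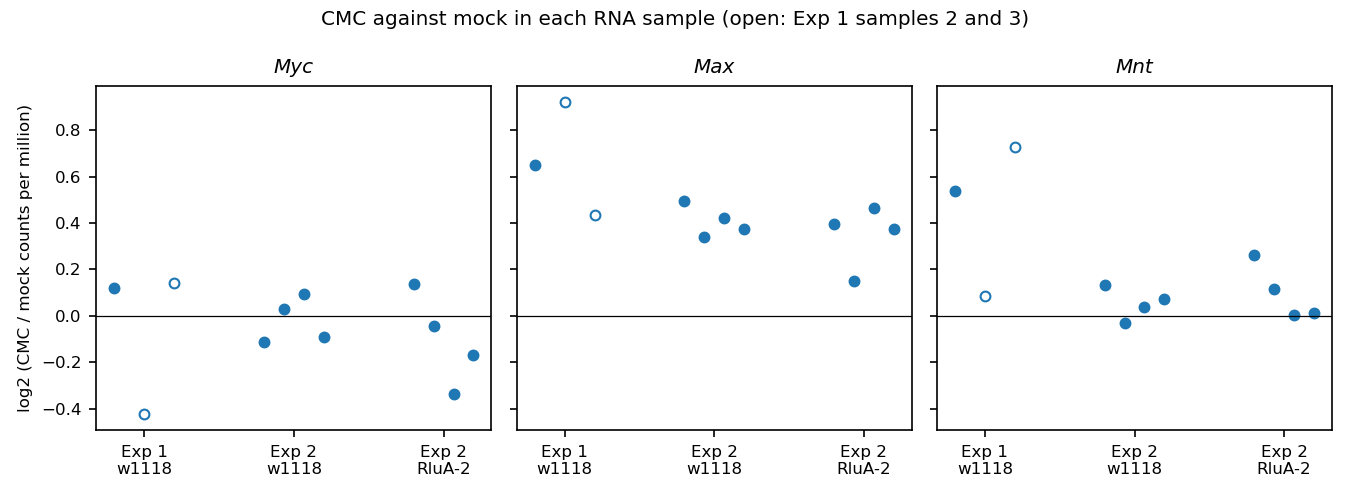
Log2 ratio of CMC to mock CPM for each of the 11 RNA samples, with Exp 1 samples 2 and 3 as open points. All 11 values of Max lie above 0, from 0.15 to 0.92, while those of Myc lie on both sides of it.

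Whether the genotype difference depended on treatment was tested by an interaction term over the 16 libraries of Exp 2. The estimates were -0.08 for Myc (SE 0.10), -0.05 for Max (SE 0.08) and 0.05 for Mnt (SE 0.06), and each had an adjusted p of 1. The 95% confidence interval for Myc ran from -0.30 to 0.13. By edgeR's quasi-likelihood test no gene of 10547 passed (percent called 0) and 326 had an unadjusted p under 0.05. By DESeq2, of 15405 genes, 0 passed and 42 had an unadjusted p under 0.05.

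For Myc, the same strain had a larger log2 fold change between the experiments than the genotypes had within Exp 2, and these sizes were not tested against each other. The w1118 mock libraries of Exp 1 held 20.2, 29.5 and 24.7 CPM of Myc, all above the 4 of Exp 2. The log2 fold change of Exp 2 over Exp 1 was -0.94 (SE 0.13, adjusted p = 0.000675), or 1.92-fold higher in Exp 1, where 32.8% of 10253 genes passed and 15.4% were lower in Exp 2. In the CMC libraries it was -0.91 (SE 0.11, adjusted p = 0.000150), where 41.9% of 10064 genes passed and 19.9% were lower in Exp 2. Max differed by -0.39 in mock (SE 0.11, adjusted p = 0.0262) and by -0.65 in CMC libraries (SE 0.12, adjusted p = 0.00141). Mnt differed by -0.16 in mock (SE 0.12, adjusted p = 0.304) and by -0.56 in CMC libraries (SE 0.11, adjusted p = 0.00281). The mock value of Max was lost, at adjusted p between 0.0529 and 0.0703, without any one of Exp 1 replicates 1 and 3 and Exp 2 replicates 3 and 4, while Mnt passed at -0.30 (adjusted p = 0.0240) without Exp 1 replicate 1 and was -0.01 without Exp 1 replicate 2. Each experiment is a batch of its own, and the experiment and anything that went with it cannot be told apart.

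Sums over markers of head cell types differed between the experiments too. Summed over 5 markers each, CMC terminations in gene spans of w1118 came to 15830 to 16140 per 1000000 gene counts for muscle in Exp 1 and 10674 to 11313 in Exp 2. For glia they came to 1506 to 1673 in Exp 1 and 2054 to 2233 in Exp 2. For the 4 haemocyte markers they came to 175 to 211 and 335 to 358, and for the 5 neuronal markers to 2835 to 3630 and 2268 to 2674. None of these ranges overlapped between the experiments. A sum follows its most abundant members, and values of single markers by experiment are not given here. Terminations of Hml, unscaled, ran from 438 to 3401 over the 11 CMC libraries. Those of the other haemocyte markers ran from 1293 to 2500 for Pxn, 856 to 1653 for srp and 31 to 143 for NimC1. The photoreceptor and germline sums of w1118 were separate as well, and those of fat body overlapped. Of the germline markers vas had 3139 to 4729 terminations in a CMC library and aub 6 to 32. The germline sum is thus almost wholly that of vas, whose span overlaps another gene on its strand. Between the genotypes of Exp 2 the glial sums were separate, at 1891 to 1966 for RluA-2 against 2054 to 2233. Gs2, the most abundant of the 5 glial markers at a mean of 1249 CPM in w1118, passed as lower in RluA-2 (log2 fold change -0.25). So did moody (-0.21), whose span overlaps another gene on its strand. In contrast repo passed as higher (0.17), and nrv2 (0.04) and Eaat1 (-0.06) did not pass. The haemocyte sums overlapped, from 330 to 355 for RluA-2 against 335 to 358, and the fat body sums, over 6 markers, overlapped in part, at 58230 to 72947 for RluA-2 against 53012 to 60380. The muscle, neuronal, photoreceptor and germline sums overlapped too. Of all 10169 genes tested by terminations in spans 9.07% were higher in RluA-2 and 11.7% lower. In RluA-2, 2 of 6 fat body markers, 2 of 4 haemocyte markers and 1 of 5 glial markers were higher. In the other direction 2 of 5 glial markers, 1 of 5 photoreceptor markers and 1 of 2 germline markers tested were lower, and none of the 5 muscle and 5 neuronal markers passed. The haemocyte genes that were higher were srp (log2 fold change 0.44), whose span overlaps another gene on its strand, and NimC1 (0.69). The more abundant haemocyte markers Hml (-0.06) and Pxn (-0.12) leaned downwards and did not pass. The defining germline genes osk and bam had no termination in 7 and 4 of the 11 CMC libraries. The part of these shifts in the levels of Myc, Max and Mnt was not tested.

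Reverse transcription ends were then examined along the genes, since a pseudouridine would appear as a position with more ends in CMC than in mock. Terminations within the span of Myc are not analysed here, because almost no listed position lies there. Myc nevertheless had 217 to 419 gene counts in a CMC library, and the reason for this mismatch was not tested. Max had 341 to 724 terminations in a CMC library, or 0.85 to 0.91 of its gene count, and Mnt had 1281 to 1945, or 0.94 to 1.01. Each span was divided into 10 equal segments, numbered from its 5′ end, and for both genes the ends fell in a few of them. Of the terminations of Mnt, 60.3% ± 2.02 (SD, n = 11) lay in segment 10 at the 3′ end and 21.1% ± 3.10 in segment 8. Those of Max were spread more widely, with 20.3% ± 3.44 in segment 4, 19.1% ± 3.55 in segment 6 and 21.7% ± 2.49 in segment 7, while segments 3 and 5 held 0.326% and 0.405%. Segments 1 and 2 of Max, which lie within the locus of CG42374 and Mettl5, held 10.9% and 11.2%. In w1118 segment 6 of Max held 20.9 to 25.7% of its ends in Exp 1 and 13.8 to 19.2% in Exp 2, and it held 17.0 to 20.5% in RluA-2. Segment 8 of Mnt held 16.5 to 17.0% in Exp 1 w1118, 19.9 to 25.0% in Exp 2 w1118 and 21.2 to 24.0% in RluA-2. In both segments w1118 was separate between the experiments and overlapped RluA-2 within Exp 2.

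**Figure D4:**
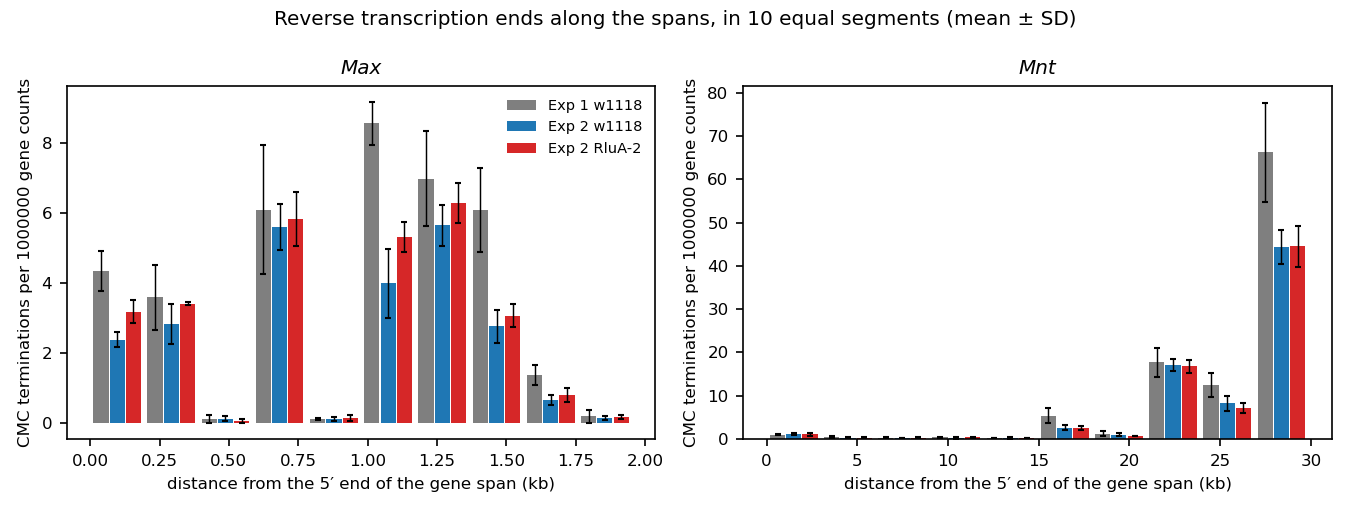
CMC terminations per 1000000 gene counts in 10 equal segments of the spans of Max and Mnt, by distance from the 5′ end in kb, as mean and SD of 3 or 4 libraries. Terminations of Mnt are densest in segment 10 at the 3′ end, with 60.3% of the total, and Exp 1 w1118 lies above both groups of Exp 2 there.

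Positions were compared by a one-sided test of 2 proportions, the termination ratio of CMC against that of mock over the reads of a pair, and the outcome depended on the variance put into it. The main test took p(1-p)/CMC coverage + 1/mock coverage, where p is the pooled termination ratio. The alternative was the usual pooled variance, p(1-p)(1/CMC coverage + 1/mock coverage), which is the smaller and is closer to the study's printed formula. Only positions with a higher termination ratio in CMC than in mock were tested, and the adjustment ran over these alone. They also needed at least 5 CMC reads ending, counting the 1 added in the deposited counts, and 5 passing. Between 1 and 33 positions of Max and between 16 and 55 of Mnt could be tested in a pair. By the main test, of 172 tests in Max and 296 in Mnt over the 11 pairs, 0 passed after Benjamini-Hochberg adjustment, 0 and 6 had an unadjusted p under 0.05, and 0.444% of all positions tested passed. The highest CMC coverage of a position was 135 reads in Max and 102 in Mnt, whereas the median mock coverage of the positions that passed elsewhere was at least 12619 in every pair. The highest mock coverage was 145 reads in Max and 161 in Mnt. Because the main variance takes 1/mock coverage whole, only a very large difference in ratio could pass at such coverage. The 0 passes of the main test therefore say little about these genes. With the pooled variance, at the same coverage, 21 tests in Max and 62 in Mnt passed, against 28.1% of all positions tested. Of the positions so called, 1 in Max and 3 in Mnt were called in w1118 pairs of both experiments. These are chr3L:19263170 in Max, where 5.34% of CMC reads ended against 0.784% of mock reads over the pairs that list it, and chrX:3699434, chrX:3700043 and chrX:3700724 in Mnt, with 14.2% against 2.69%, 7.60% against 1.87% and 10.8% against 1.05%. These percentages are the values that chose the positions and carry no test of their own. Neither outcome shows pseudouridine to be present in these transcripts or absent from them.

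Genes around the network were read from CMC terminations in RefSeq gene spans, because the rows of the gene counts outside the 3 members carry no symbols. On this measure RluA-2 itself was 4.78-fold lower in RluA-2 flies (log2 fold change -2.26, adjusted p = 2.92e-06). Max had a log2 fold change of 0.25 (SE 0.08, adjusted p = 0.0367) and Mnt of -0.01 (SE 0.08, adjusted p = 0.973), beside 0.20 and 0.01 by gene counts of the same libraries. The span of Max overlaps the locus of CG42374 and Mettl5, and ends there were counted for Max. By gene counts of these libraries Max did not pass (adjusted p = 0.103 by edgeR's quasi-likelihood test). Of all 10169 genes tested 20.8% passed, and the median log2 fold change was 0.01.

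The genes of ribosome production, the class that Myc is known to activate, leaned upwards in RluA-2. Of 21 tested, 8 rose (38.1%, beside 9.07% of all genes), 0 fell and 13 did not pass, and 18 had a log2 fold change above 0. The list's median was 0.19, beside 0.01 over all genes. Non1, a nucleolar GTPase, had 350 to 453 CPM in the mutant against 234 to 277 CPM in the control, a log2 fold change of 0.59 (SE 0.08, adjusted p = 7.90e-05). The mfl gene (Nop60B), which encodes the pseudouridine synthase of box H/ACA small nucleolar particles, had 0.43 (SE 0.09, adjusted p = 0.00382), although its span overlaps another gene on its strand. The third largest rise was in ppan, a factor of the large ribosomal subunit's assembly, at 0.41 (SE 0.10, adjusted p = 0.0105). Fib, the box C/D methyltransferase, and its companion Nop56 rose by 0.38 and 0.40. Tif-IA, a cofactor of RNA polymerase I, had -0.02 and did not pass. The number that rose stayed between 6 and 10 when any single library was left out.

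The partners, cofactors and regulators of Myc and Mnt passed about as often as genes at large. Of 18 tested, 2 rose (11.1%, beside 9.07% of all genes), 1 fell and 15 did not pass, so that 16.7% passed beside 20.8% of all, with a median log2 fold change of 0.07. Those that rose were bigmax, the partner of Mondo in the sister network, at 0.26 (SE 0.07, adjusted p = 0.0184), and Psi, a single-stranded DNA and RNA binding protein known to act on the Myc promoter, at 0.17 (SE 0.05, adjusted p = 0.0305). HDAC1, a histone deacetylase of the Sin3A corepressor, fell by 0.25 on the log2 scale (SE 0.07, adjusted p = 0.0120), with a span that overlaps another gene on its strand. The regulators of Myc protein stability ago and puf had 0.03 and 0.12 and did not pass. The number of these genes that rose was 0 without w1118 replicate 3 or without RluA-2 replicate 2, and 1 without w1118 replicate 4 or without RluA-2 replicate 1.

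Of 17 growth genes tested, 2 rose (11.8%, beside 9.07% of all genes), 1 fell and 14 did not pass, so that 17.6% passed beside 20.8% of all, with a median of -0.02. Thor, the inhibitor of the cap-binding protein eIF4E, rose by 0.48 on the log2 scale (SE 0.11, adjusted p = 0.00452) and S6k, a kinase downstream of Tor, by 0.30 (SE 0.07, adjusted p = 0.00492). The cap-binding protein gene eIF4E1 fell by 0.16 (SE 0.05) at an adjusted p of 0.0499, and the count of falls was 0 when any single library other than w1118 replicate 3 was left out. The cell cycle genes CycD, Cdk4, CycE and stg had log2 fold changes from -0.10 to -0.04 and did not pass.

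**Figure D5:**
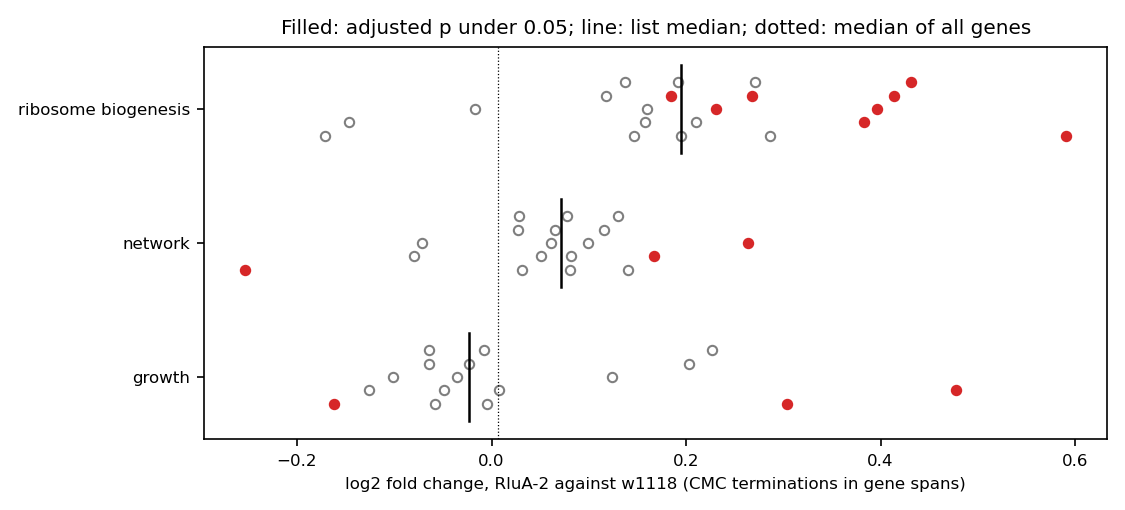
Log2 fold changes of CMC terminations in gene spans, RluA-2 against w1118 of Exp 2 (4 libraries each), for the genes of 3 lists, with the list median as a line and the median of all genes dotted. Filled points passed at an adjusted p under 0.05: 8 ribosome biogenesis genes lie to the right of 0 and none to the left.

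The genes most like each member were taken by Pearson's r of log2 CPM. Over the 22 libraries the 5 rows most like Myc had r from 0.90 to 0.92, led by FBgn0283741. Those most like Max had 0.95 to 0.98 and those most like Mnt 0.95 to 0.96, and the median gene of 10599 was near 0 for all 3. By terminations in spans over the 11 CMC libraries, the genes most like Max were Swt1, Gbp1, TfIIA-S, CG33307 and RpS29, with r from 0.97 to 0.98 and spans of 453 to 2259 bases. Those most like Mnt were CG43736, Rim, CanA-14F, CG8034 and dnc, with r of 0.98 and spans of 16931 to 167328 bases. The members themselves were less alike, with r of 0.39 for Myc and Max, 0.60 for Myc and Mnt and 0.46 for Max and Mnt. The libraries share experiment, treatment and genotype, so these values describe likeness over these libraries only.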

How the data were processed

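The gene count values were deposited by the authors as raw counts per gene, made per the study's methods and the submitters' processing notes with Trimmomatic 0.33, STAR 2.6.1a, Bowtie2 and featureCounts 2.0.0 (strand-specific, properly paired reads, read pairs on 2 genes dropped) against FlyBase release 6. The authors also deposited, per position and strand, termination counts, coverage and the termination ratio, which is the fraction of covering reads that end at the position, with 1 added to counts and coverage, and positions listed only where the CMC library has a termination. The 1 was subtracted from the termination sums, and from the percentages and highest coverage given for positions of the members. It was kept in the position tests and in the median coverage of the positions that passed. The deposited ratios were not used, as ratios were recomputed from the counts. No comparison columns of the authors were used.

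Counts were tested with edgeR 4.0.16 (TMM, filterByExpr, quasi-likelihood, Benjamini-Hochberg over all genes tested) in R 4.3.3, with DESeq2 1.42.0 as an alternative. DESeq2's size factors, library totals, no filter on low counts, a replicate block and leaving out each replicate were other alternatives. CPM used TMM over all 22 libraries. Log2 ratios of counts used a pseudocount of 0.5 and exact permutation tests (scipy 1.17.1). Positions were tested with a one-sided two-proportion z-test, as in the study but with another variance, p(1-p)/CMC coverage + 1/mock coverage. Only positions with the higher ratio in CMC were tested, a limit that the study's methods do not state. In the study's printed formula p(1-p) multiplies both coverage terms, which are joined by a minus sign. That form has no value where mock coverage is the lower, and it was run only as an alternative with a plus sign (pooled variance). The scripts were tested on simulated data. The labels do not say whether replicates came from separate cultures, so p-values measure only the spread between these samples, which may be technical. The counting error of Myc was 4.34% to 8.14% of its count.

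RNA samples pair CMC and mock libraries by design, and 9 of 11 pairs had correlated deviations. Replicate numbers of the genotypes share only a number. The lists had been planned for gene counts, whose rows carry no symbols, and were read instead from CMC terminations within RefSeq spans (at least 20 in a gene over the libraries, the strand with more). Of the listed genes 18 of 18, 23 of 24 and 18 of 19 matched a symbol for the network, ribosome and growth lists. Genes with an overlapping gene on their strand numbered 4 in each of these lists. Named genes were the members, RluA-2, the 3 largest rises and falls that passed in each list, and the 5 most correlated genes, while Fib, Nop56, Tif-IA, ago, puf and the cell cycle genes were picked after their values were seen. Members and lists were chosen with earlier results of these data known.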

Additional observations from a re-analysis of the deposited data

Results flagged for a closer look

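Max stood out in replicate 3 of the Exp 2 w1118 mock libraries. At 17.5 CPM it was the lowest of its group, and its gap to the next library took 0.862 of the group's range, above Dixon's critical value for 4 samples. This library had 215 counts of Max, the fewest of the 22, and the smallest total, 12035142. It was the only flag among 30 groups tested, where chance flags about 1 in 20. Without it the log2 fold change of Max between Exp 2 and Exp 1 was -0.33 (adjusted p = 0.0581). That between the genotypes in mock libraries was 0.20 (adjusted p = 0.112 by edgeR's test), the lowest of the 8 fits with a library left out.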

How the results depend on the processing

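Of 8 libraries left out in turn, the log2 fold change of Myc between genotypes stayed between 0.35 and 0.61 in mock (adjusted p 0.0101 to 0.0512) and 0.36 to 0.50 in CMC libraries, and passed in 7 and 8 of them. Max in mock was 0.20 to 0.31 and passed at 0.31 without RluA-2 replicate 1. It also passed with DESeq2 (0.26), with no filter on low counts (0.26), with the replicate block (0.27) and, added after seeing the data, with CMC and mock counts summed (0.24). Over all 15 alternatives its adjusted p ran from 0.0224 to 0.139. With no adjusted p under 0.05, Mnt between genotypes changed sign at values near 0: it was 0.0066 with counts summed, -0.059 to 0.00075 with a library left out in mock, -0.060 to 0.068 with one left out in CMC libraries, and -0.0018 with library totals in CMC libraries. The interaction changed sign likewise, with ranges of -0.18 to 0.0067 for Myc, -0.099 to 0.0044 for Max and -0.023 to 0.075 for Mnt. Between CMC and mock in w1118, Myc was -0.071 to 0.051 with a library pair left out and 0.012 without the Exp 1 pairs 2 and 3. Max was 0.48 to 0.56 with 1 pair left out. Mnt was 0.14 to 0.27 and passed with library totals (0.24), DESeq2 (0.23), no filter (0.23), within Exp 1 (0.46), with the crossed pairs (0.23), without Exp 1 replicate 2 (0.27, adjusted p = 0.0456) and without Exp 2 w1118 replicate 2 (0.27, adjusted p = 0.0442). In RluA-2 Mnt was 0.039 to 0.13 and passed with library totals (0.12) and without RluA-2 replicate 3 (0.13, adjusted p = 0.0310). Between experiments in mock, Max ran from -0.48 to -0.25 and Mnt from -0.30 to -0.0065. Positions called over the 11 pairs went from 0 to 21 in Max and 62 in Mnt with the pooled variance. With a library left out, 0 to 3 network genes rose, 6 to 10 ribosome biogenesis genes rose and 0 to 1 fell, and 2 to 4 growth genes rose and 0 to 1 fell. No growth gene fell with DESeq2's size factors (0). Apart from these and from the single libraries named above for the comparison of experiments, no call on the gene counts of Myc, Max or Mnt changed under the alternatives run. No ratio passed with the other pseudocount or in CMC libraries, and with a library left out none could, since the smallest exact permutation p is then 0.0571. The cause of these changes was not tested.

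Without the block of RNA samples 1270 genes passed between CMC and mock in w1118 and 1362 in RluA-2, against 3654 and 3303 with it. DESeq2 called 1628 in RluA-2, 2340 passed in w1118 without Exp 1 replicate 1, and 4533 with the crossed pairs. In the interaction 39 genes passed with no filter and 0 to 9 with a library left out. In the block by replicate number, same-numbered samples of the genotypes correlated at -0.02 to 0.23 in mock and 0.00342 to 0.27 in CMC libraries, and only number 1 went best with itself. Coverage of a position reached 135 reads in Max and 102 in Mnt.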
